A study of Homo sapiens with 24 samples.

Results

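Cells carrying an inducible TOB2 S254D were followed through the first 2 h of a bromouridine chase, and the change in labelled cytoplasmic RNA over that time is described here. The members were set by the design and not by a measured value. They are the 4 induced libraries at 1 and 2 h of chase against the 4 induced libraries at 0 and 0.5 h, which makes 8 of the 24 libraries of the series. Of 25341 genes in the table, 13416 averaged 1 TPM or more across all libraries and were tested. TPM is a transcript abundance corrected for length and scaled to the same total in each library. Just outside the limit stood PRSS8 and RASD1, at means of 0.99917 and 0.99958 TPM, and just inside it KLHL30 and HHLA2, both at 1.0004 TPM.

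The cells were U2OS, an established human osteosarcoma line, in a stable line with a tetracycline-off switch. Induced cells were grown without doxycycline and expressed S254D, a mutant of TOB2 that mimics phosphorylation, while uninduced cells were kept in doxycycline and served as the control arm. Each arm has 2 libraries at each of 6 times, 0, 0.5, 1, 2, 4 and 6 h, and all of them hold RNA recovered from the cytoplasm with an antibody to bromouridine. The drug and the mutant changed together, so their parts cannot be told apart. One stable line was used, and nothing states that replicates 1 and 2 came from separate cultures, so p-values measure the spread between these libraries, which may be technical.

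In a pulse-chase of this kind cells take up bromouridine, the label is then withdrawn, and RNA made during the pulse is followed as it is exported, matures and is degraded. Unstable messages such as those of immediate early genes leave the labelled pool first, while long-lived messages of metabolism and translation take up a growing share of what remains. TOB2 is a BTG/TOB protein, a family that brings the CCR4-NOT deadenylase to mRNAs, and shortening of the poly(A) tail is the usual first step of mRNA decay. Histone mRNAs of the replication-dependent kind have no poly(A) tail and end in a stem-loop.

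Because TPM is relative, a gene that "rose" became a larger share of the labelled RNA and one that "fell" a smaller share. Fewer molecules of a gene cannot be told apart from more of other RNAs. Sequencing depth is unknown. Between 13193 and 13757 genes reached 1 TPM in each of the 8 libraries. The noncoding RNAs RMRP, RPPH1 and MIR6723 together took 21.2% of the total in replicate 1 and 27.5% in replicate 2 at 0 h, then 19.5% and 27.5% at 0.5 h, 16.1% and 21.4% at 1 h and 15.3% and 16.8% at 2 h. Replicate 2 was thus the higher at each time, and its 0 and 0.5 h libraries stood apart from the other start libraries. Against the label of epithelial cells, EPCAM was at 0 in the 8 libraries and the 8 epithelial markers summed to 0.96 to 2.78 TPM. Of the 8 mesenchymal markers, VIM (346 to 615 TPM), S100A6 (360.5 to 555.7 TPM), CD44 (66.2 to 119 TPM) and COL1A1 (6.86 to 16.61 TPM) were present. SPARC and FN1 reached at most 0.54 and 0.5 TPM, and COL1A2 and TWIST1 were at 0. Of the 8 osteoblast markers IBSP, SPP1 and DMP1 were at 0 too, while RUNX2 was at 3.31 to 7.53 TPM and BGLAP at 0 to 3.32 TPM. SP7, ALPL and PHEX reached at most 0.6, 0.08 and 0.62 TPM. Of the 2 osteoblast markers tested 1 was called over the early chase. Of 8 leukocyte markers CD3E was at 0, and lysozyme (LYZ) was the highest at 29.7 to 60.4 TPM, with 0 of the 3 tested markers called.

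TOB2 itself was at 653 and 516 TPM at 0 h, 628 and 499 at 0.5 h, 725 and 584 at 1 h and 717 and 607 at 2 h in induced cells. It did not move past the threshold over the early chase (log2 change 0.20, SE 0.115, adjusted p = 0.238), and the start and later libraries overlapped. The table does not separate transgene reads from those of the cells' own gene. TOB2 levels of the uninduced arm are not given here, so these values do not check the induction.

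Over the early chase 2585 genes rose (19.3% of those tested) and 502 fell (3.74%), by limma on log2(TPM + 1) with a Benjamini-Hochberg adjusted p under 0.05. Changes of more than 1 log2 unit were rare, with 20 genes higher (0.149%) and 33 lower (0.246%). In 931 genes every later library lay above every start library (6.94%), and in 304 every one lay below (2.27%). Genes with a protein-coding (NM) transcript rose in 21.6% and fell in 3.56% of cases, while genes without one rose in 3.07% and fell in 5.02%. The median of all changes was 0.11 log2. Of the calls, 83.7% were upward as deposited. With median-of-ratios scaling the split was 58.2% up and 41.8% down, with quantile normalization 54.7% and 45.3%, with those 3 noncoding RNAs removed 59.9% and 40.1%, and on protein-coding transcripts only 57.4% and 42.6%. Under these 4 scalings 10.4% to 11.1% of all genes rose and 6.95% to 8.68% fell. Counts in gene groups below stand beside these shares and the 19.3% and 3.74% of the deposited values, and medians beside 0.11. Calls also rested on single libraries: 1457 genes rose without replicate 2 at 0 h, 1529 without replicate 2 at 0.5 h, 1484 without replicate 1 at 1 h and 1631 without replicate 1 at 2 h. Without both replicate 2 start libraries 897 rose (6.69%) and 443 fell (3.3%), and in a fit of the 8 libraries alone 575 rose and 176 fell.

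Immediate early genes, the first to be transcribed after a growth or stress signal, held most of the largest falls among protein-coding genes. EGR1, a zinc finger transcription factor, was at 179 and 275 TPM at 0 h, 182 and 127 at 0.5 h, 63.5 and 55.5 at 1 h and 23.8 and 19.5 at 2 h. All 4 later libraries lay below all 4 at the start, and the mean was lower at each time than at the one before (log2 change -2.32, SE 0.182, adjusted p = 1.5e-06). JUNB, an AP-1 subunit, was at 2132 and 2242 TPM at 0 h, 1252 and 1167 at 0.5 h, 1058 and 998 at 1 h and 337 and 320.0 at 2 h. JUNB dropped between 0 and 0.5 h and again between 1 and 2 h, with little change between those steps (log2 change -1.48, SE 0.0797, adjusted p = 2.33e-08). IER2, a nuclear immediate early protein, was at 1167 and 1184 TPM at 0 h, 901 and 663 at 0.5 h, 589 and 504 at 1 h and 233 and 213 at 2 h. Its later libraries were all lower than its start libraries (log2 change -1.45, SE 0.129, adjusted p = 5.61e-06). FOS, the partner of JUN proteins in AP-1, was at 301 and 466 TPM at 0 h, 568 and 292 at 0.5 h, 209 and 211 at 1 h and 123.4 and 118 at 2 h. Its 0.5 h libraries were far apart, yet all 4 later libraries were below the lowest start library (log2 change -1.29, SE 0.244, adjusted p = 0.00136).

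**Figure D1:**
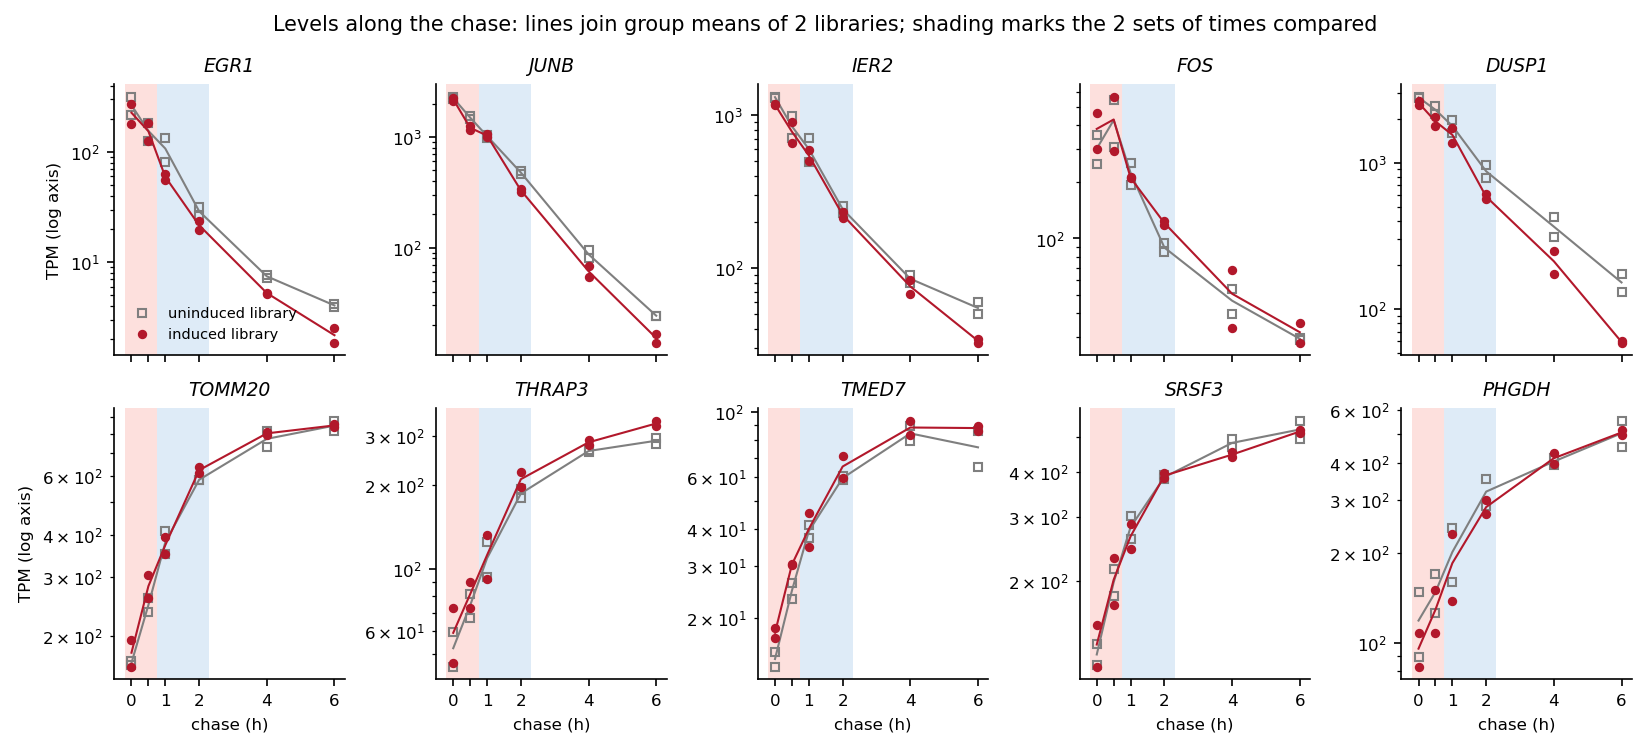
TPM on a log axis against hours of chase for 5 genes that fell (top row) and 5 that rose (bottom row); red points are the induced and grey squares the uninduced libraries, lines join means of 2, and shading marks the start (0 and 0.5 h) and later (1 and 2 h) times. EGR1 in induced cells went from 179 and 275 TPM at 0 h to 23.8 and 19.5 TPM at 2 h, and TOMM20 from 195 and 162 TPM to 610 and 638 TPM.

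Other regulatory genes fell alongside, among them feedback genes. DUSP1, a phosphatase that switches off MAP kinases, was at 2472 and 2657 TPM at 0 h, 2051 and 1774 at 0.5 h, 1726 and 1369 at 1 h and 606 and 563 at 2 h. Most of the decline came between 1 and 2 h, and no later library reached the start range (log2 change -1.22, SE 0.132, adjusted p = 3.03e-05). ZFP36, which binds AU-rich elements and recruits deadenylases, was at 92.8 and 109 TPM at 0 h, 65.2 and 67.5 at 0.5 h, 40.7 and 42.1 at 1 h and 23.2 and 26.8 at 2 h. Replicates lay close together and the groups did not overlap (log2 change -1.32, SE 0.0863, adjusted p = 1.68e-07). BTG2, an antiproliferative relative of TOB2, was at 48.1 and 51.3 TPM at 0 h, 29 and 28.5 at 0.5 h, 18.6 and 23.8 at 1 h and 8.41 and 12.8 at 2 h. By 2 h it was below every start and 1 h library (log2 change -1.29, SE 0.156, adjusted p = 7.61e-05). SERTAD1, a coregulator of transcription, was at 191 and 195 TPM at 0 h, 125 and 105 at 0.5 h, 75 and 97.9 at 1 h and 32 and 46.9 at 2 h. The lowest start library was above the highest later one (log2 change -1.35, SE 0.204, adjusted p = 0.000289). NR4A1, an orphan nuclear receptor, fell by 1.07 log2 (SE 0.284, adjusted p = 0.0126), with replicates at 584 and 1204 TPM at 1 h.

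The upstream sequences of EGR1, JUNB, DUSP1 and FOS are shown because these genes had large log2 falls and are known for rapid induction. Each is the 250 bases before the RefSeq start on GRCh38.p14, read 5′ to 3′ on the gene's strand. Capitals mark CArG boxes, the element bound by serum response factor, in EGR1, the cAMP response element TGACGTCA in DUSP1, and TATAAA in DUSP1, JUNB and FOS.
EGR1, chr5:138465229-138465478, plus strand: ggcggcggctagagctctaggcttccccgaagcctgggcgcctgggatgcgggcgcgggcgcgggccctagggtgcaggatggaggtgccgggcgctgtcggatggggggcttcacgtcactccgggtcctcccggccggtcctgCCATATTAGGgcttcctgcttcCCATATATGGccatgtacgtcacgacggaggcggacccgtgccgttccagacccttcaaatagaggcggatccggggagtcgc
JUNB, chr19:12791236-12791485, plus strand: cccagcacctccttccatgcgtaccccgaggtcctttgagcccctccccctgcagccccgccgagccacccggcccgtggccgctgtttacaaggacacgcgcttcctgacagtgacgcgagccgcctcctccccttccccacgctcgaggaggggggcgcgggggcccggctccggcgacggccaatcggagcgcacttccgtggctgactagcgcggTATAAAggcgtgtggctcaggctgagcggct
DUSP1, chr5:172771196-172771445, minus strand: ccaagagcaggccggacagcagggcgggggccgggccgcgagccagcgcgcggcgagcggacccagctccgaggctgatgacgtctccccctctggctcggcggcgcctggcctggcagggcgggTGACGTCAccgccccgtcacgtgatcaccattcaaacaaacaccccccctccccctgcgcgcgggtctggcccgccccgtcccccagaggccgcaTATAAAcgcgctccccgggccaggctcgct
FOS, chr14:75278578-75278827, plus strand: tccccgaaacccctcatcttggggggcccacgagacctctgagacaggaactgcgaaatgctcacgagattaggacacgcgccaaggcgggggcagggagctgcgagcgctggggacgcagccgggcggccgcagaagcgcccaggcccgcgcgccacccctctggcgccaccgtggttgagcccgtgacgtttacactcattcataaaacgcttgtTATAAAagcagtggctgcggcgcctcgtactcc
The 2 CArG boxes of EGR1 begin 105 and 83 bases before the start, the TGACGTCA of DUSP1 begins 125 bases before it, and TATAAA begins 30, 31 and 33 bases before it in DUSP1, JUNB and FOS. On either strand a CArG box was held by 1.16% of the 35116 promoters in the table, TGACGTCA by 1.65% and TATAAA by 10.7%. Among the 10469 tested genes with a matched promoter the shares were 1.42%, 3.45% and 8.13%. TATAAA also stands 30 bases before the start of SRSF3, which rose. Called and other genes were not compared, because a promoter was matched for fewer than 80% of the genes that fell (77.5%) and of all tested (78.0%), and a match is a description only.

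By family, 5 of 11 AP-1 genes fell and 2 rose, with a median of -0.41, where 3.74% of all genes fell and 19.3% rose. JUN (log2 change -1.02, SE 0.149, adjusted p = 0.00021) and ATF3 (log2 change -0.79, SE 0.14, adjusted p = 0.000895) fell without overlap, FOSL1 fell by 0.53, and FOSB, JUND and FOSL2 had values of -0.41, -0.23 and -0.15 that did not pass. ATF2 (0.41) and ATF7 (0.34), which are bZIP transcription factors, were the members that rose. In the list of EGR, IER and other immediate early factors 18 of 36 fell and 4 rose, with a median of -0.43. NR4A2 (-0.79) and NR4A3 (-0.65) fell with NR4A1. SNAI1 (-0.76), a repressor of E-cadherin, CTGF (-0.73), a matricellular YAP target, and IER5 (-0.93) fell too. IER3 was among the most abundant, at 3052 and 3101 TPM at 0 h, 2815 and 2886 at 0.5 h, 2594 and 2754 at 1 h and 1616 and 1445 at 2 h. It held near its start level to 1 h, just below the start range, and was lower at 2 h (log2 change -0.55, SE 0.135, adjusted p = 0.00775). Under the 4 other scalings 19 to 23 of the list fell and 1 rose, and without both replicate 2 start libraries 14 fell and 1 rose.

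The members that rose moved against the list. TXNIP, an inhibitor of thioredoxin that senses glucose, was at 31.4 and 23.5 TPM at 0 h, 40.2 and 37.5 at 0.5 h, 60 and 59.3 at 1 h and 53.9 and 58.8 at 2 h, with all later libraries above all start libraries (log2 change 0.82, SE 0.143, adjusted p = 0.000787). It was at 9.4 and 15 TPM at 4 h, so the rise was passing. The Krüppel-like factors KLF5 (log2 change 0.32, SE 0.0783, adjusted p = 0.00841) and KLF4 (log2 change 0.33, SE 0.102, adjusted p = 0.0304) had the same course, KLF5 reaching 102 and 99.4 TPM at 2 h and standing at 33.4 and 40.2 TPM at 4 h. KLF11 rose by 0.24. All 3 Krüppel-like calls were lost under each other scaling, while that of TXNIP was kept. MYC was at 4107 and 3094 TPM at 0 h, 3881 and 3170 at 0.5 h, 4327 and 2951 at 1 h and 2332 and 1710 at 2 h, flat to 1 h and lower at 2 h, and its early change did not pass (log2 change -0.40, SE 0.213, adjusted p = 0.195).

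Against the same 3.74% lower and 19.3% higher among all genes, smaller families moved in both directions. Of 11 MAP kinase phosphatases, DUSP1, DUSP2 (-0.93) and DUSP10 (-0.40) fell and DUSP7 (0.34) rose. DUSP5 and DUSP6 had values of -0.39 and -0.27 that did not pass. SERTAD1, SERTAD3 (-0.89) and CITED2 (-0.59) fell and SERTAD4 (0.58) rose among 7 coregulators of the SERTAD and CITED families. SPRY4 (-0.47), a brake on growth factor receptors, was the 1 of 6 Sprouty and SPRED genes that fell. ID1, an inhibitor of helix-loop-helix factors and a target of BMP signalling, was at 1307 and 1696 TPM at 0 h, 1646 and 1747 at 0.5 h, 1491 and 2171 at 1 h and 534 and 759.6 at 2 h. Its level held to 1 h and then dropped, so that the start and 1 h libraries overlapped (log2 change -0.57, SE 0.133, adjusted p = 0.00578). ID3 behaved alike (log2 change -0.30, SE 0.0756, adjusted p = 0.00881), and ID2 had a value of 0.13 that did not pass.

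**Figure D2:**
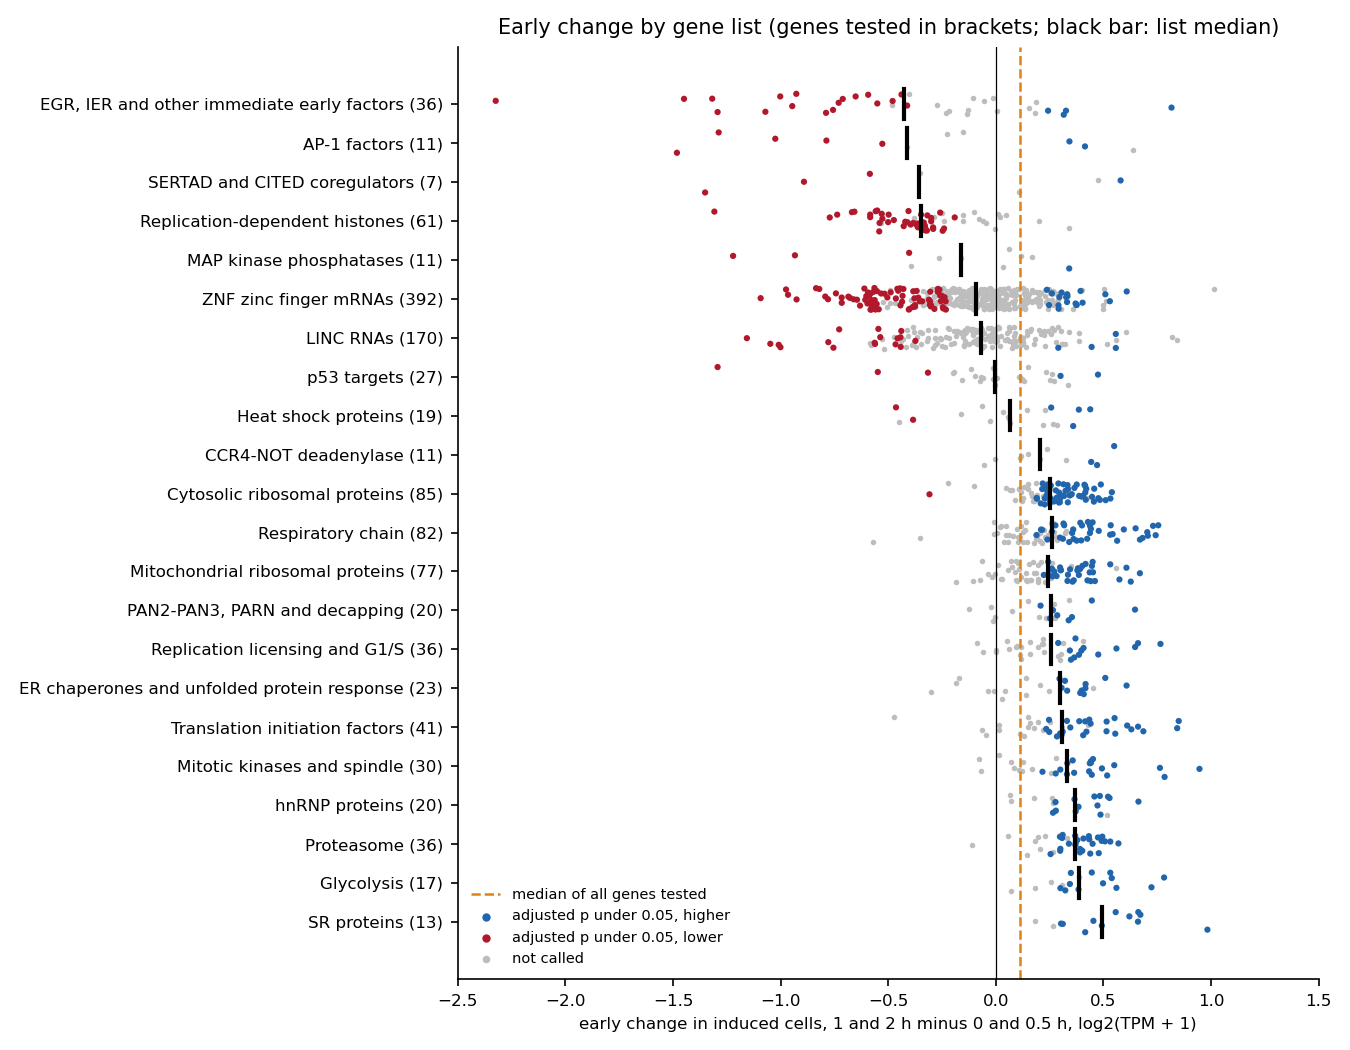
Early change in induced cells (log2(TPM + 1), 1 and 2 h minus 0 and 0.5 h) for every tested member of 22 gene lists, with blue and red points past an adjusted p of 0.05, grey points not called, black bars at list medians and the dashed line at the median of all genes, 0.11. Medians ran from -0.43 for EGR, IER and other immediate early factors to 0.49 for SR proteins.

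Replication-dependent histone mRNAs, made in S phase and degraded when DNA synthesis ends, fell as a class. Of 61 tested genes 43 fell and 0 rose, against 3.74% of all genes falling, with a median of -0.35. HIST1H2BJ was at 1985 and 1944 TPM at 0 h, 1231 and 1079 at 0.5 h, 986 and 1090 at 1 h and 692 and 809 at 2 h. The step from 0 to 0.5 h was the steepest, with the 0.5 h libraries near those at 1 h, and the ranges of the start and later libraries overlapped narrowly (log2 change -0.77, SE 0.0665, adjusted p = 4.38e-06). HIST1H1B, a linker histone, was at 977 and 921 TPM at 0 h, 722 and 552 at 0.5 h, 474 and 611 at 1 h and 383 and 417 at 2 h. Only replicate 2 at 1 h lay within the start range (log2 change -0.74, SE 0.0966, adjusted p = 0.000107). The largest called fall of the list was that of HIST1H2BE (log2 change -1.31, SE 0.416, adjusted p = 0.0321). Only 4 of the 61 fell without overlap, where 2.27% of all genes did. HIST1H2BM was 1 of these 4 (log2 change -0.53, SE 0.0898, adjusted p = 0.000651), and HIST1H4C had a value of -0.06 (adjusted p = 0.607). Among the 61 genes 6 share all their values with another copy, so their separate levels are uncertain. Under the other scalings 46 to 50 fell, and without both replicate 2 start libraries 39 did.

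Histone variants made from polyadenylated mRNAs did not follow. Of 10 such genes 4 were called higher and 0 lower, H2AFZ, H2AFY, H3F3B and H3F3A, the last of which is uncertain as described below. H2AFZ was at 397 and 350.0 TPM at 0 h, 418 and 354 at 0.5 h, 446 and 427 at 1 h and 527 and 514 at 2 h, and the groups did not overlap (log2 change 0.33, SE 0.0978, adjusted p = 0.0222). The median was 0.24. These calls were lost under each of the 4 other scalings, where 0 members rose and the median was 0.05 to 0.12.

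Messages of C2H2 zinc finger proteins, a large family of DNA-binding repressors, leaned downward. Of 392 tested, 80 fell (against 3.74% of all genes) and 19 rose, with a median of -0.09. Without overlap 60 fell, against 2.27% of all genes. ZNF627 was at 41 and 40.9 TPM at 0 h, 31 and 26.3 at 0.5 h, 19.2 and 22.8 at 1 h and 9.44 and 13.9 at 2 h. All later libraries were below all start libraries (log2 change -1.09, SE 0.139, adjusted p = 0.000103). ZNF254 (-0.97) and ZNF138 (-0.97) fell as well, to 3.11 and 4.25 TPM and to 4.51 and 3.77 TPM at 2 h. ZNF32 was the member with the largest called rise (log2 change 0.61, SE 0.162, adjusted p = 0.0129). Scaling mattered here, since 131 to 144 members fell and 8 to 11 rose under the other scalings.

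In the other direction, single genes rose at every time. TOMM20, a receptor of the mitochondrial import channel, was at 195 and 162 TPM at 0 h, 303 and 260.3 at 0.5 h, 396 and 350.4 at 1 h and 610.3 and 638 at 2 h. Each later library lay above each start library (log2 change 1.11, SE 0.0754, adjusted p = 2.33e-07). THRAP3, a splicing-associated nuclear protein, was at 72.5 and 46.1 TPM at 0 h, 90 and 72.9 at 0.5 h, 133 and 92 at 1 h and 223 and 196 at 2 h. Replicate 2 was lower at each time, and the later libraries were still all above the start range (log2 change 1.14, SE 0.144, adjusted p = 0.000103). TMED7, a cargo receptor of the early secretory pathway, was at 18.6 and 17.1 TPM at 0 h, 30.6 and 30.2 at 0.5 h, 34.8 and 45.5 at 1 h and 59.5 and 71.1 at 2 h. Levels went up at every time and the groups did not overlap (log2 change 1.09, SE 0.102, adjusted p = 9.1e-06). PHGDH, the first enzyme of serine synthesis, was at 108 and 83 TPM at 0 h, 149.7 and 108 at 0.5 h, 231 and 138 at 1 h and 300.3 and 269 at 2 h, and its replicate 2 library at 1 h fell within the range at the start (log2 change 1.03, SE 0.188, adjusted p = 0.00107). FGF18, a growth factor, rose from a low level, from 2.61 to 6.25 TPM at the start to 6.64 to 14.4 TPM later (log2 change 1.19, SE 0.204, adjusted p = 0.000683).

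Ribosomal protein mRNAs, abundant and stable messages with a terminal oligopyrimidine tract, gained share together. Of 85 tested genes 57 rose (19.3% of all genes did) and 1 fell, with a median of 0.25. Without overlap 50 rose, against 6.94% of all genes. RPL5 was at 1183 and 997 TPM at 0 h, 1299 and 1108 at 0.5 h, 1555 and 1400 at 1 h and 1789 and 1794 at 2 h. Start and later libraries did not overlap (log2 change 0.51, SE 0.0668, adjusted p = 0.000107). RPL4 (0.54), RPL11 (0.53) and RPS10 (0.49) moved alike. RPL10A was the member that fell (log2 change -0.31, SE 0.0677, adjusted p = 0.00389), and in the chase from 4 to 6 h it rose. Under the other scalings between 11 and 42 members rose and 1 or 2 fell, with medians of 0.11 to 0.21. The 11, with median-of-ratios scaling, are 12.9% of the list, near the 11.1% of all genes that rose there, and without both replicate 2 start libraries 24 rose.

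Among other parts of the translation machinery, 25 of 41 initiation factors rose and 0 fell, against 19.3% and 3.74% of all genes, with a median of 0.31. EIF4B, a cofactor of the cap-binding helicase, was at 377 and 299 TPM at 0 h, 386 and 319.9 at 0.5 h, 534 and 399.9 at 1 h and 861 and 802 at 2 h. All later libraries were above all start libraries (log2 change 0.85, SE 0.0912, adjusted p = 3.03e-05), and EIF3A (0.69), the largest subunit of the EIF3 complex, rose too. Of 77 mitochondrial ribosomal proteins 35 rose and 0 fell (median 0.24), led by MRPL48 (log2 change 0.67, SE 0.0821, adjusted p = 8.66e-05). Of 20 cytosolic aminoacyl-tRNA synthetases 7 rose and 0 fell. Under the other scalings 12 to 18 initiation factors and 12 to 22 mitochondrial ribosomal proteins rose, and 2 to 5 of the latter fell. Without both replicate 2 start libraries 13 and 8 rose.

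Genes of energy metabolism also rose. Of 82 nuclear genes of the respiratory chain 38 rose and 0 fell, against 19.3% and 3.74% of all genes, with a median of 0.26. COX5A, a subunit of cytochrome c oxidase, was at 66.1 and 62.9 TPM at 0 h, 92.1 and 83.5 at 0.5 h, 128 and 118 at 1 h and 117 and 141 at 2 h, with no overlap (log2 change 0.73, SE 0.0788, adjusted p = 3.03e-05). NDUFA9 of complex I (0.74), ATP5A1 of ATP synthase (0.68) and COX7A2L (0.75), a factor of respiratory supercomplexes, rose too. Of 17 glycolytic enzymes 12 rose and 0 fell (median 0.38). GAPDH was at 3139 and 2794 TPM at 0 h, 3221 and 2858 at 0.5 h, 4447 and 3451 at 1 h and 4781 and 4378 at 2 h. Every later library was above every start library (log2 change 0.50, SE 0.0749, adjusted p = 0.000282), and HK2, the inducible hexokinase, rose by 0.72. Under the other scalings 16 to 22 respiratory chain genes and 8 or 9 glycolytic genes rose, against 10.4% to 11.1% of all genes.

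Protein folding and turnover genes moved in the same direction. Of 36 proteasome genes 26 rose (19.3% of all genes did) and 0 fell, with a median of 0.37, and PSMB1 of the catalytic core was at 92.5 and 82.3 TPM at 0 h, 89 and 89.1 at 0.5 h, 119 and 98.7 at 1 h and 167 and 150.5 at 2 h. It was highest at 2 h and the groups did not overlap (log2 change 0.57, SE 0.0829, adjusted p = 0.000214). Of the 8 CCT chaperonin subunits 6 rose, led by CCT8 (0.57). Of 23 genes of the endoplasmic reticulum chaperones and the unfolded protein response 11 rose and 0 fell, with the disulfide isomerases PDIA4 (0.61) and PDIA3 (0.51) highest. HSPA5, the main chaperone of that compartment, was at 313 and 293 TPM at 0 h, 511 and 489.9 at 0.5 h, 417 and 455 at 1 h and 496 and 486 at 2 h. It rose between 0 and 0.5 h (step 0.72, adjusted p = 0.0323) and then levelled off, and its early change did not pass (log2 change 0.25, SE 0.0894, adjusted p = 0.056). Under the other scalings 12 to 18 proteasome genes and 3 to 7 of the endoplasmic reticulum list rose.

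Splicing factors held the highest median of all the lists. Of 13 SR proteins, which bind exonic enhancers, 11 rose (19.3% of all genes did) and 0 fell, with a median of 0.49. SRSF3 was at 151 and 116 TPM at 0 h, 232 and 171 at 0.5 h, 286 and 245 at 1 h and 385 and 396 at 2 h, with every later library above every start library (log2 change 0.98, SE 0.102, adjusted p = 2.64e-05). SRSF2 (0.66), SRSF1 (0.66) and SRSF7 (0.67) followed. Of 20 hnRNP genes 13 rose and 0 fell (median 0.37), with HNRNPR the highest of those called (log2 change 0.66, SE 0.0633, adjusted p = 1.12e-05). The kinase CLK1, which phosphorylates SR proteins, went the other way and was at 134 and 130.2 TPM at 0 h, 128 and 110.2 at 0.5 h, 94.4 and 92.9 at 1 h and 88.1 and 80.7 at 2 h. Its later libraries were all below its start libraries (log2 change -0.49, SE 0.0638, adjusted p = 0.000107). Between 8 and 11 SR genes and 7 to 9 hnRNP genes rose under the other scalings, and CLK1 was the 1 of 4 CLK genes that fell as deposited, while 2 fell under each other scaling.

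Cell cycle genes rose late in this window. Of 30 mitotic genes 19 rose (19.3% of all genes did) and 0 fell (median 0.33). PLK1, a kinase of mitotic entry, was at 24.3 and 19.3 TPM at 0 h, 29.5 and 27.6 at 0.5 h, 38.7 and 28.3 at 1 h and 72 and 71.8 at 2 h, with most of its rise between 1 and 2 h (log2 change 0.95, SE 0.125, adjusted p = 0.000115). CDK1 (0.78) and CCNB2 (0.76), which form the mitotic kinase, rose without overlap. Of 36 licensing and G1/S genes 13 rose and 0 fell (median 0.26), led by the helicase subunit MCM2 (0.76) and by RRM1 (0.66), a subunit of ribonucleotide reductase. Between 11 and 13 mitotic and 7 to 9 licensing genes rose under the other scalings. Without both replicate 2 start libraries 7 mitotic and 2 licensing genes were called, where 6.69% of all genes rose.

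In the lists of the decay machinery itself the calls were upward as deposited, where 19.3% of all genes rose. Of 11 CCR4-NOT genes 3 rose (27.3%) and 0 fell: the deadenylases CNOT7 (log2 change 0.47, SE 0.0795, adjusted p = 0.000612) and CNOT8 (0.44) and the scaffold CNOT1 (0.55). Their median of 0.20 was -0.004 to 0.11 under the other scalings, where 3 still rose and at most 1 fell, and without both replicate 2 start libraries CNOT7 alone was called. Of 20 genes of PAN2-PAN3, PARN and decapping 8 rose and 0 fell, with the decapping activator PATL1 highest (log2 change 0.65, SE 0.137, adjusted p = 0.00308). In this list 2 or 3 rose and 1 fell under the other scalings, and without both replicate 2 start libraries 1 rose and PATL1 lost its call (limma, adjusted p = 0.0737). Of 10 poly(A)-binding and La-related proteins 6 rose, led by PAIP1 (0.68). The exosome had 4 of 17 (23.5%) and nonsense-mediated decay 4 of 15 (26.7%) members higher, near the share of all genes, the latter including the junction proteins MAGOHB (0.53), EIF4A3 and RBM8A. The nonsense-mediated decay count was 1 or 2 under the other scalings and 1 without both replicate 2 start libraries. Within the BTG/TOB family BTG2 fell and BTG3 rose (0.25) as deposited only, that call being lost under each other scaling, and TOB1 had a value of -0.28 (adjusted p = 0.122).

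Proteins that bind mRNA to set its stability held calls in both directions. Of 26, ZFP36, its relative ZFP36L1 (-0.30) and the ribonuclease ZC3H12A (-0.39) fell, and 7 rose, among them KHSRP (0.56) and HNRNPD (AUF1, 0.46). That is 26.9% higher, near the 19.3% of all genes, and 11.5% lower, where 3.74% of all genes fell. Under the other scalings 5 or 6 rose and 3 or 4 fell. The median was 0.10 and changed sign with the scaling, from -0.01 to 0.02.

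Stress pathways held calls in both directions. Of 16 integrated stress response genes CHAC1 (-0.55), DDIT4 (-0.66) and DDIT3 (-0.35) fell, while PHGDH, TRIB3 and CEBPG (0.31) rose. Each direction is 18.8% of the list, which for the rises is near the 19.3% of all genes, while 3.74% of all genes fell. Under the other scalings 2 or 3 rose and 3 to 5 fell. TRIB3, a pseudokinase induced by ATF4, was at 386 and 316 TPM at 0 h, 464 and 379.8 at 0.5 h, 648 and 516 at 1 h and 634 and 564 at 2 h. Its later libraries were all above its start libraries (log2 change 0.62, SE 0.138, adjusted p = 0.00442). Of 19 heat shock genes HSPA1A (-0.46) and DNAJB1 (-0.38) fell and 4 rose (21.1%, near the 19.3% of all genes), among them HSP90AB1 (0.44). Under each other scaling 2 rose and 3 fell. Their median of 0.06 was below 0 under the other scalings (-0.08 to -0.06). Of 27 p53 targets BTG2, the proapoptotic BBC3 (-0.55) and AEN (-0.32) fell and GADD45A (0.30) and ZMAT3 (0.47) rose. That is 11.1% lower and 7.41% higher, and under the other scalings 0 or 1 rose and 4 to 7 fell. Among 19 genes of BMP and TGF-beta signalling TGIF1 (-0.51) and SMAD6 (-0.27) fell, and SMAD7 (0.52), NOG (0.43), SMURF2 and SKI rose. Those 4 risers are 21.1% of the list, near the share of all genes, and under the other scalings 2 or 3 rose and 4 or 5 fell. SMAD7 and NOG, both inhibitors of the pathway, were lower at 4 h than at 1 or 2 h, as TXNIP was.

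Noncoding RNAs differed by class. RMRP, the RNA of RNase MRP, was at 94761 and 129313 TPM at 0 h, 67610 and 94490 at 0.5 h, 61771 and 83520 at 1 h and 40126 and 47807 at 2 h. The ranges overlapped at 1 h, and both 2 h libraries were below the start (log2 change -0.75, SE 0.132, adjusted p = 0.000852). With quantile normalization RMRP was at -0.13 and not called (limma, adjusted p = 0.777). RPPH1, the RNA of RNase P, fell by 0.23 (adjusted p = 0.044), and MIR6723 had a value of -0.29 (adjusted p = 0.138). Of 170 LINC RNAs 17 fell (10%) and 4 rose (2.35%), where 3.74% and 19.3% of all genes did. Among genes without a protein-coding transcript 5.02% fell and 3.07% rose. LINC01126 fell to 0.49 and 0.46 TPM at 2 h (log2 change -1.16, SE 0.144, adjusted p = 9.19e-05). MIR22HG, the host of miR-22, was at 95.3 and 72.7 TPM at 0 h, 67.5 and 59.3 at 0.5 h, 57.9 and 60.6 at 1 h and 25.5 and 28.8 at 2 h. Replicate 2 at 1 h lay just inside the start range, and both 2 h libraries were far below it (log2 change -0.84, SE 0.117, adjusted p = 0.000162). NEAT1, the scaffold of paraspeckles, was at 334 and 321 TPM at 0 h, 649.6 and 519.9 at 0.5 h, 385 and 478 at 1 h and 234 and 211 at 2 h, a peak at 0.5 h followed by a fall (log2 change -0.50, SE 0.117, adjusted p = 0.00578). Of 316 antisense transcripts 10 fell (3.16%, near the 3.74% of all genes) and 8 rose, and these cannot be told apart from their partner genes where the counting ignores strand, which is not given in the sources used here.

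Entries for microRNA genes were at the extremes. The mature sequences from RefSeq (GRCh38.p14) are given for the 3 whose entries fell by more than 3 log2 units, with the seed, bases 2 to 8, in capitals. They show what the loci encode. The hairpins are 82, 110 and 98 bases long, and the table does not show whether the values come from the hairpin or from longer RNA across it.
hsa-miR-6077: gGGAAGAGcuguacggccuuc
hsa-miR-219a-5p: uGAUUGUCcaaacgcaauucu
hsa-miR-219a-1-3p: aGAGUUGAgucuggacgucccg
hsa-miR-6789-5p: gUAGGGGCgucccgggcgcgcggg
hsa-miR-6789-3p: cGGCGCCCgugucuccuccag
The 5 seeds differ from each other. MIR6077 was at 145 and 162 TPM at 0 h, 48.7 and 142 at 0.5 h, 0 and 64.3 at 1 h and 0 and 10 at 2 h. Replicate 1 had no value above 0 at 1 or 2 h while replicate 2 did, and the ranges overlapped (log2 change -4.46, SE 0.885, adjusted p = 0.00192). MIR219A1 was listed at 0 in 3 of the 4 later libraries and at 12.5 TPM in the other, against 13.9 to 33.9 TPM at the start (log2 change -3.46, SE 0.533, adjusted p = 0.00033). MIR6789 was at 0 in all 4 later libraries, but also at 0 in replicate 2 at 0.5 h (log2 change -3.21, SE 1.05, adjusted p = 0.0369). The small RNAs SNAR-A1 and SNAR-A2, with identical values, were at 96.2 and 1312 TPM at 0 h, 47.4 and 248 at 0.5 h, 36.1 and 80.9 at 1 h and 0 and 0 at 2 h. Replicates of the same time were far apart at 0 h and both were at 0 at 2 h (log2 change -4.74, SE 0.734, adjusted p = 0.000341).

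Of 176 small nucleolar and Cajal body RNAs 7 fell (3.98%, near the 3.74% of all genes) and 3 rose. SNORD22 was at 113 and 74.4 TPM at 0 h, 134 and 70.9 at 0.5 h, 59.2 and 64 at 1 h and 29.3 and 36.8 at 2 h, lower without overlap (log2 change -1.05, SE 0.246, adjusted p = 0.0056). SNORA71A rose (log2 change 0.74, SE 0.223, adjusted p = 0.0248), and the summed share of these RNAs peaked between, as given below. Of 18 spliced snoRNA hosts 5 rose (27.8%), led by SNHG16 (0.58), and SNHG12 (-0.42) fell (5.56%). Both shares are near the 19.3% and 3.74% of all genes.

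Several of the largest rises belong to entries whose reads are shared with a near copy or a read-through. H3F3A was at 0.14 and 262 TPM at 0 h, 0 and 272 at 0.5 h, 366 and 334 at 1 h and 141 and 403 at 2 h, that is at or near 0 in replicate 1 at the start and well above it elsewhere (log2 change 4.10, SE 1.44, adjusted p = 0.0494). EIF3CL, a near copy of EIF3C, was at 34.1 and 11.3 TPM at 0 h, 62.2 and 0.19 at 0.5 h, 85.9 and 33.1 at 1 h and 119 and 76.5 at 2 h (log2 change 2.43, SE 0.776, adjusted p = 0.0325). EIF3C itself was at 25.2 and 28.7 TPM at 0 h, 0 and 58.4 at 0.5 h, 9.17 and 20.1 at 1 h and 4.69 and 9.16 at 2 h, with its 0 where EIF3CL was high. The read-through entries TNFAIP8L2-SCNM1 (2.44), RBM14-RBM4 (1.32) and NME1-NME2 (1.09) are of the same kind. How the counting split such reads is uncertain, and these values are not read as changes of the gene.

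Of the 130 genes named above as called over the early chase, 82 kept their call without each of the 8 libraries in turn, under each of the 4 other scalings that tested them and without both replicate 2 start libraries. EGR1, JUNB, IER2, FOS, DUSP1, ZFP36, BTG2, SERTAD1, TOMM20, THRAP3, TMED7, PHGDH, SRSF3, RPL5, COX5A, PSMB1, TXNIP and PLK1 are among them. In the fit of the 8 libraries alone, which this tally leaves out, 728 of all 3087 calls were kept. The 130 genes, each with a call as deposited, were mostly named for a large change or a small p-value. Without at least 1 single library 32 lost it. These were AEN, ATF7, BTG3, CEBPG, CTGF, DDIT3, DUSP7, DUSP10, EIF3CL, EIF4A3, GADD45A, H2AFY, H2AFZ, H3F3A, H3F3B, HIST1H2BE, HSPA1A, KLF4, KLF11, MIR6789, NOG, NR4A1, NR4A3, PDIA4, RBM14-RBM4, RPPH1, SMAD7, SNORA71A, TNFAIP8L2-SCNM1, ZFP36L1, ZMAT3 and ZNF32. Their highest adjusted p (limma) ran from 0.0517 for ZFP36L1 to 0.249 for RPPH1. Under at least 1 other scaling 25 lost it. These were ATF2, ATF7, BTG3, CEBPG, DUSP7, EIF3CL, EIF4A3, GADD45A, H2AFY, H2AFZ, H3F3A, H3F3B, HIST1H2BE, KLF4, KLF5, KLF11, NME1-NME2, NOG, RBM8A, RMRP, RPPH1, SMAD7, SNORA71A, TNFAIP8L2-SCNM1 and ZMAT3. Without both replicate 2 start libraries 41 lost it, with ID1 at an adjusted p of 0.0953, IER3 at 0.0702 and TRIB3 at 0.0925.

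The steps show when the change came. Between 0 and 0.5 h 13 genes passed (0.0969%), 5 higher (0.0373%) and 8 lower (0.0596%). Of the 8, 6 were histone genes, HIST1H2BJ, HIST1H2AG, HIST2H4A, HIST2H4B, HIST4H4 and HIST2H2BE, and the other 2 were JUNB and LINC00324. HIST2H4A and HIST2H4B share all values. TOMM20 and HSPA5 were the protein-coding genes among the 5 higher. Between 0.5 and 1 h 1 gene passed (0.00745%), GAGE2E, which was listed at 0 in both 0.5 h libraries and both 2 h libraries. Between 1 and 2 h 819 passed (6.1%), 622 higher (4.64%) and 197 lower (1.47%). This last step is also the longest, 1 h against 0.5 h. In the fit of the 8 libraries alone this step called 27 genes. Its count fell to 118 without replicate 2 at 1 h and to 108 without replicate 1 at 2 h, rose to 1291 without replicate 1 at 1 h, and was 460 without replicate 2 at 2 h.

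**Figure D3:**
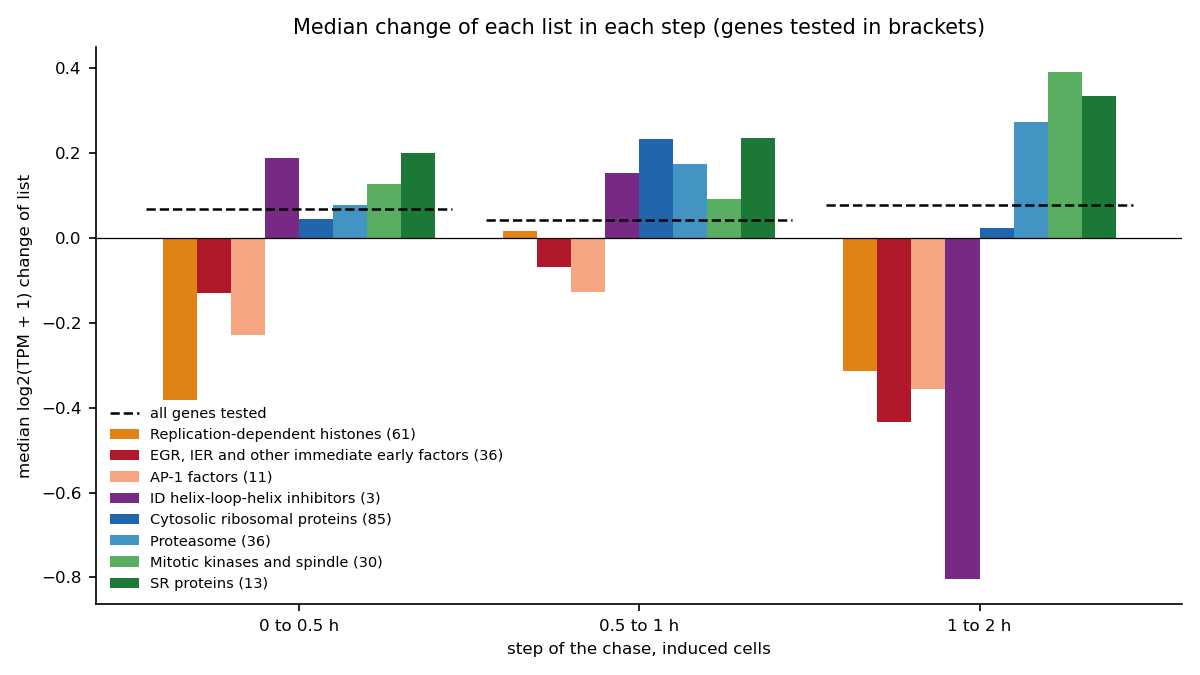
Median log2(TPM + 1) change of 8 gene lists in the 3 steps of the early chase in induced cells, with the dashed lines at the medians of all genes (0.07, 0.04 and 0.08). Histone medians were low in the first and last steps (-0.38 and -0.31), the ID median in the last (-0.80), and the ribosomal protein median was highest in the middle step (0.23).

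The lists differed in timing, as medians with no test. Histone genes had medians of -0.38, 0.02 and -0.31 in the 3 steps. Immediate early factors had -0.13, -0.07 and -0.43, and AP-1 genes -0.23, -0.13 and -0.36. The 3 ID genes had 0.19, 0.15 and -0.80. Ribosomal proteins had 0.04, 0.23 and 0.02, while mitotic genes had 0.13, 0.09 and 0.39 and proteasome genes 0.08, 0.17 and 0.27.

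**Figure D4:**
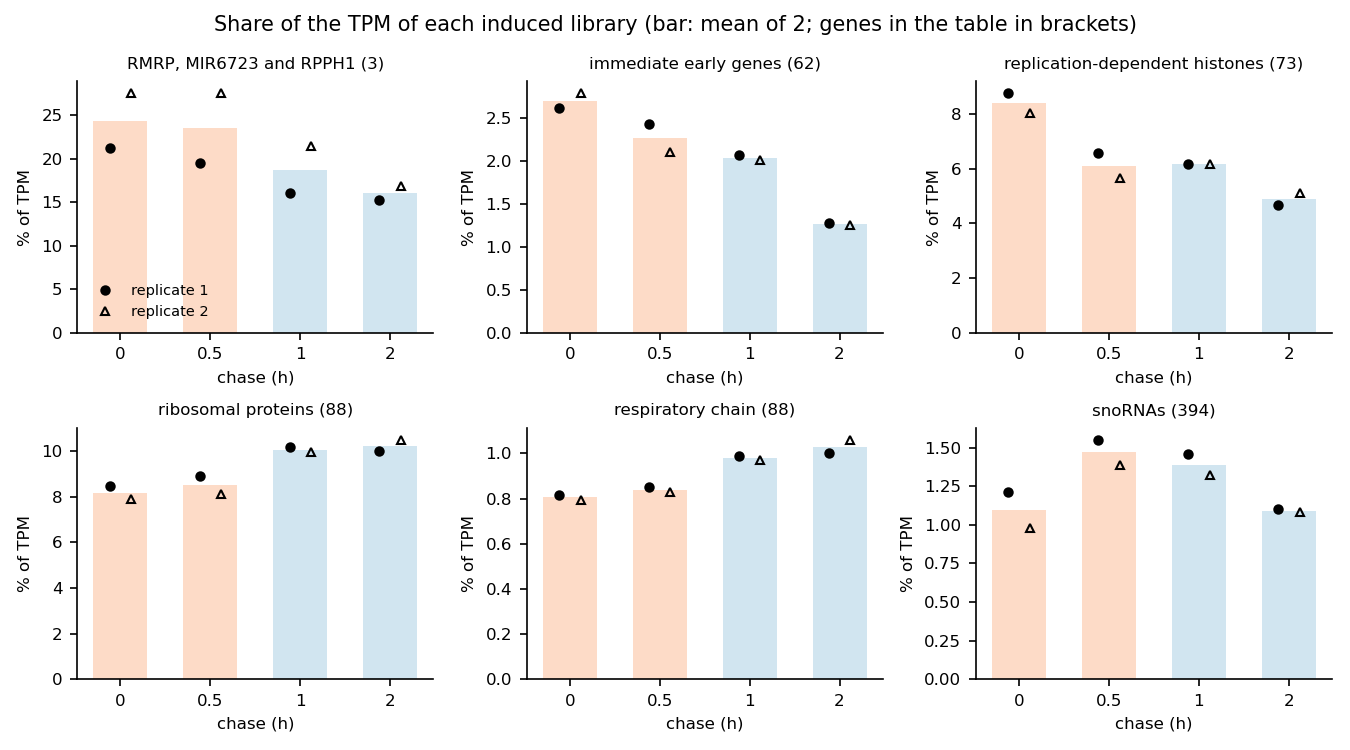
Percent of the TPM of each induced library held by 6 groups of RNA at 0, 0.5, 1 and 2 h; bars are means of 2 libraries, filled circles replicate 1 and open triangles replicate 2, and brackets give the genes of each group in the table. Ribosomal protein mRNAs held 7.92% to 8.9% at the start and 9.95% to 10.5% later, without overlap.

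Summed over each group, the shares show what the labelled pool was made of. Immediate early genes, with the MAP kinase phosphatases counted in, took 2.61% and 2.78% at 0 h, 2.43% and 2.1% at 0.5 h, 2.06% and 2.01% at 1 h and 1.27% and 1.25% at 2 h. The mean went from 2.48% ± 0.288 (SD, n = 4) to 1.65% ± 0.449 (exact two-sided permutation test, p = 0.0286, the smallest this design allows, and 0.0571 adjusted over 6 groups). Replication-dependent histones went from 7.27% ± 1.4 to 5.53% ± 0.753 (exact permutation p = 0.114, adjusted 0.137), with 1 of 4 start libraries inside the later range. Ribosomal proteins went from 8.36% ± 0.425 to 10.2% ± 0.237 and the respiratory chain from 0.822% ± 0.0232 to 1.0% ± 0.0363 (each exact permutation p = 0.0286, adjusted 0.0571). RMRP, MIR6723 and RPPH1 went from 23.9% ± 4.22 to 17.4% ± 2.75 (exact permutation p = 0.0857, adjusted 0.129), and within each replicate number both later libraries were below both start libraries. Small nucleolar RNAs held 1.1% ± 0.167 at 0 h, 1.47% ± 0.11 at 0.5 h, 1.39% ± 0.102 at 1 h and 1.09% ± 0.0103 at 2 h (SD, n = 2), a course that start against later does not capture (exact permutation p = 0.8). No group passed 0.05 after adjustment.

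Set beside the uninduced arm, which was measured at the same times, the early change in induced cells was alike in kind. In uninduced cells 1922 genes rose (14.3%) and 392 fell (2.92%). Of the 2585 that rose in induced cells 1658 also rose in uninduced cells, 64.1% of the first list and 86.3% of the second. Of the 502 that fell 273 did in both, 54.4% and 69.6%. Under the other scalings 860 to 1077 rose and 445 to 627 fell in both arms, and without both replicate 2 start libraries of the induced arm 768 and 252 did. Without replicate 1 at 1 h of the uninduced arm 1091 rose in both. Across the 13416 genes, which are not independent, the changes of the arms had a Pearson's r of 0.64 and a Spearman's rho of 0.74. Between replicates 1 and 2 of the induced arm, each taken alone, the early changes had a Pearson's r of 0.44. The 2 arms share no library, though the calls of both rest on the same fit and its spread.

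**Figure D5:**
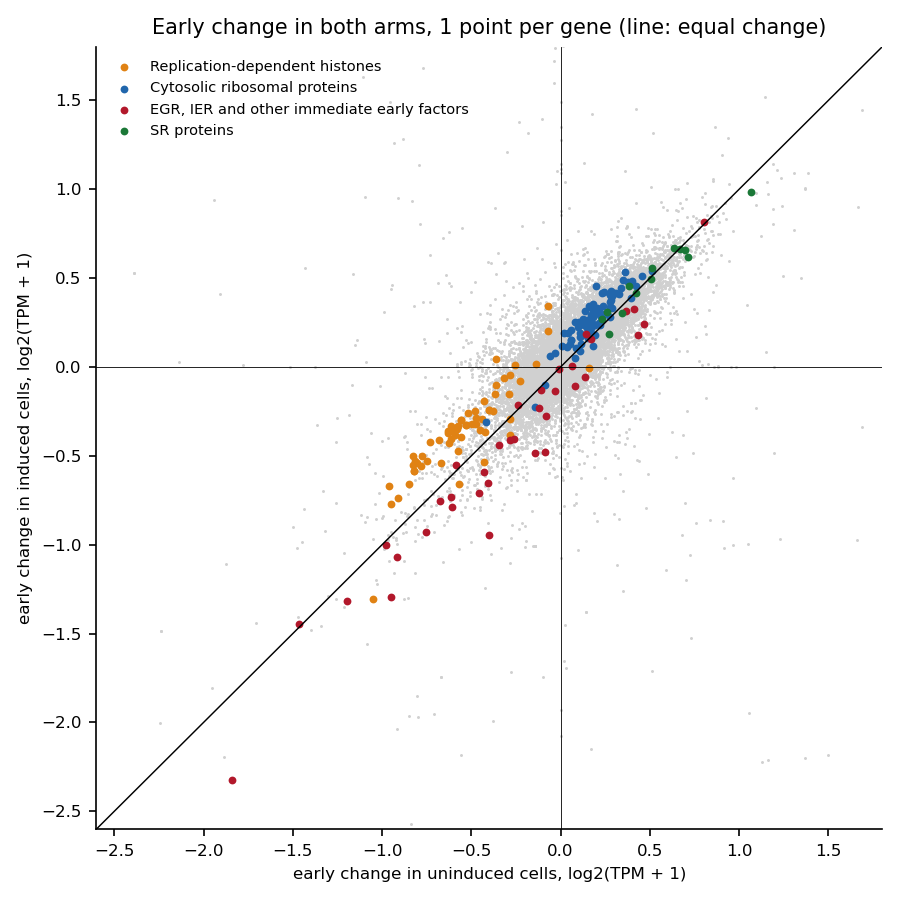
Early change in induced cells against that in uninduced cells, 1 grey point per gene, with 4 lists in colour and the line of equal change; 29 of 13416 genes lie outside the axes. EGR1 is the lowest red point, at -2.32 in induced and -1.84 in uninduced cells, and the histone points lie mostly above the line.

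The test of the difference between arms called 0 genes higher and 0 lower (0% of those tested) by limma, with 260 genes at an unadjusted p under 0.05 and a smallest adjusted p of 1. An early change called in induced cells and not in uninduced cells is therefore not shown to differ. With 2 libraries a group it is not shown to be the same either. EGR1 had a difference of -0.49 and BTG2 one of -0.34 (induced minus uninduced, adjusted p = 1 for both). The smallest p among positive differences belonged to NPFF, a neuropeptide precursor, at 1.07 (SE 0.232, adjusted p = 1), and to CPSF3, the endonuclease of 3′ end cleavage, at 0.49. NPFF was at 2.65 and 3.67 TPM at 0 h, 4.16 and 5.22 at 0.5 h, 5.66 and 4.32 at 1 h and 5.07 and 8.06 at 2 h in induced cells. Its uninduced values are not given here, so these alone do not show how much of the difference each arm made. The smallest among negative differences was that of the zinc transporter SLC39A4, at -0.85 (SE 0.198, adjusted p = 1). SLC39A4 was at 11.3 and 8.16 TPM at 0 h, 7.99 and 8.14 at 0.5 h, 2.68 and 3.3 at 1 h and 6.66 and 8.13 at 2 h, low at 1 h alone. Replication-dependent histones had a median early change of -0.35 in induced and -0.56 in uninduced cells, with 43 and 50 of 61 called lower, and their median difference was 0.22 against 0.03 for all genes. They also started lower, by a median of -0.46 log2 at 0 and 0.5 h against the uninduced arm. The same start libraries enter the arm difference, so a lower start raises that difference and the values are not independent. No histone gene was called for the difference.

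The chase from 4 to 6 h was set beside the early change after the data were seen. Its libraries are outside the early contrast, but both sets of calls rest on the same fit, spread and filter on the mean. In induced cells 226 genes rose (1.68%) and 1448 fell (10.8%) between 4 and 6 h. Of the 502 early fallers 218 fell again, 43.4% of that list and 15.1% of the later one, and 2 rose, of which RPL10A is named above. JUNB went on falling by 1.93 log2 (adjusted p = 4.13e-08) and DUSP1 by 1.79 (adjusted p = 8.01e-06). Of the 2585 early risers 152 rose again (5.88%, and 67.3% of the later list) and 300 fell. TXNIP (-0.80), KLF5 (-1.12) and SMAD7 (-1.05) were among those 300, while RPL5 (0.44) and HNRNPR (0.39) rose in both.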

How the data were processed

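RNA labelled with bromouridine was immunoprecipitated from the cytoplasm and sequenced in 24 libraries. The authors deposited 1 table of TPM values per transcript. Per the submitters' processing notes, which give no roles, Trim Galore, Bowtie2, RSEM 1.3.0 and hg19 were used. TPM holds no depth, so no counting interval could be given. Strand handling in the counting is not given in the sources used here.

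Transcript TPM were summed per gene (48009 transcripts, 25341 genes). The 13416 genes averaging 1 TPM or more were fitted on log2(TPM + 1) with limma 3.58.1 in R 4.3.3, with 12 group means, a variance trend and 12 residual degrees of freedom over all 24 libraries. The early change is the mean of 1 and 2 h minus the mean of 0 and 0.5 h, and p-values were Benjamini-Hochberg adjusted over all genes, with 0.05 as the threshold. A fold change on the log2(TPM + 1) scale understates the change of low genes. The fit was tested on simulated data. Group shares were compared by exact permutation tests (scipy 1.17.1). Promoter and microRNA sequences are RefSeq's on GRCh38.p14, matched by transcript accession or symbol.

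The members and the gene lists were chosen with earlier results of these data known. Genes named were TOB2, the 12 largest early changes in each direction past the threshold (averaging 5 TPM or more in the 8, same sign in both replicates, a protein-coding transcript), the 6 largest without one, the 5 smallest p for the arm difference in each direction, and in each list up to 4 members with the smallest p plus members called against its majority. Not all are printed, and further list members were named after their values were seen. Alternatives were other pseudocounts, filters and scalings, transcripts, a replicate block, no variance trend, fewer groups, other time contrasts and each library left out. The 6 h minus 4 h contrast and the fit without both induced replicate 2 start libraries were added after seeing the data.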

Additional observations from a re-analysis of the deposited data

How the results depend on the processing

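The count of genes that rose over the early chase in induced cells was 2585, and 502 fell. It was 1491 and 1073 with median-of-ratios scaling, 1407 and 1165 with quantile normalization, 1426 and 954 with RMRP, MIR6723 and RPPH1 removed, 1261 and 935 on protein-coding transcripts, and 575 and 176 in a fit of the 8 libraries alone. The step from 0.5 to 1 h by itself gave 1 and 0, and the fit without both induced replicate 2 start libraries 897 higher. The scalings differ from the deposited values in the total against which a gene is measured. A fit of the 8 libraries alone has fewer degrees of freedom and takes its spread from these libraries only. What moved the counts was not tested. Leaving out 1 library at a time gave 1457 to 3114 higher and 346 to 486 lower. Pseudocounts of 0.1 and 5, no filter, a limit of 5 TPM, transcripts, no variance trend and 2 h minus 0 h kept both counts within 1.5 times. Of the 3087 calls 1986 were kept with median-of-ratios scaling and 728 in the fit of the 8 libraries alone.

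The arm difference called 0 genes in each direction. It called 2 higher with no filter, 1 higher in the fit of the contrast's groups alone, 1 higher without both induced replicate 2 start libraries, and 0 to 1 in each direction with 1 library left out.

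The step from 0 to 0.5 h called 13 genes. It called 30 with a pseudocount of 5, 26 with no filter, 26 with a limit of 5 TPM, 34 with median-of-ratios scaling, 152 with quantile normalization, 47 without the 3 noncoding RNAs, 52 on protein-coding transcripts, 53 on transcripts, 5 with no variance trend, 5 with the contrast's groups alone and 2 to 23 with 1 library left out. The step from 0.5 to 1 h called 1 gene, and in the same order 2, 7, 0, 3, 7, 2, 8 and 16 up to transcripts, then 11 with the contrast's groups alone, 0 with a pseudocount of 0.1, 3 without both replicate 2 start libraries and 0 to 5 with 1 library left out. The step from 1 to 2 h called 819, and 357 on transcripts, 27 with the contrast's groups alone and 108 to 1291 with 1 library left out. The causes of these moves were not tested.

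The replicate numbers of the labels were entered as a replicate block, which gave 3443 higher and 674 lower, all 3087 calls kept, 0 arm differences, and 139, 11 and 1617 genes in the 3 steps. Deviations of same-numbered libraries had correlations of -0.04 to 0.25, 0.12 to 0.20 within the induced arm. With 2 libraries a group the numbers are taken as names only.

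As shares of the protein-coding TPM, immediate early genes differed by -1.4 percentage points between start and later libraries, histones by -3.19 and ribosomal proteins by 1.26 (each exact permutation adjusted p = 0.0381). From 0 to 2 h alone the differences were -1.43 for immediate early genes, -3.51 for histones and 0.223 for the respiratory chain. With 1 library left out they were -7.99 to -5.3 for RMRP, MIR6723 and RPPH1, -0.966 to -0.696 for immediate early genes, -2.27 to -1.23 for histones, 0.165 to 0.193 for the respiratory chain and 1.65 to 1.98 for ribosomal proteins. The snoRNA difference of -0.0444 ran from -0.146 to 0.0441 and changed sign without replicate 1 at 0.5 h (0.0441), replicate 1 at 2 h (0.00357) or replicate 2 at 2 h (0.00844).

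Some values of named genes changed sign. In the step from 0.5 to 1 h alone DUSP6 was at 0.0686, HIST1H4C at 0.286, HSPA5 at -0.199, ID1 at 0.0851, ID3 at 0.152, JUND at 0.153, MYC at 0.0269, RPL10A at 0.0154, RPPH1 at 0.13, SMAD6 at 0.182, TGIF1 at 0.0398 and ZC3H12A at 0.0272. With quantile normalization ID2 was at -0.0796, MIR6723 at 0.13 and RPPH1 at 0, and on protein-coding transcripts ID2 was at -0.0104. The range between replicates taken alone was -0.0662 to 0.319 for ID2 and -0.168 to 0.0451 for HIST1H4C. No protein table was used here, so the planned protein-length comparison was not run. TPM keeps no depth, which limits what can be said of low genes.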
